A study of Mus musculus with 18 samples.

Results

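The 49 genes described here drive the step from G1 into S phase and copy the DNA. They were taken by gene symbol from a list of cyclins, kinases, E2F factors and parts of the replication machinery. All 49 were among the 24411 symbols of the table. All 49 were also among the 11548 genes tested, those with at least 1 TPM in at least 3 libraries.

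In G1, cyclin D with Cdk4 or Cdk6, and then cyclin E with Cdk2, phosphorylate the retinoblastoma protein. This frees E2F factors, which activate many genes of DNA synthesis. The origin recognition complex, Cdc6 and Cdt1 load the ring of MCM proteins onto DNA, Cdc45 and the GINS complex turn the ring into a working helicase, and PCNA, its loader RFC, the single-strand binding protein RPA and the polymerases then copy both strands. RAW264.7, the line used, is a transformed mouse macrophage line that divides in culture, and lipopolysaccharide is known to slow the division of macrophages.

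The KO cells were a RAW264.7 line made deficient in Kdm7a, a histone demethylase, with CRISPR/Cas9 and a Kdm7a guide RNA, and the control cells carried a control guide RNA. In the M1 groups the cells had mouse interferon gamma (2 ng/ml) and lipopolysaccharide (0.1 µg/ml), and in the M2 groups mouse IL-4, IL-10 and IL-13 (20 ng/ml) and human TGF-β1 (2 ng/ml). The M0 groups were not stimulated, and every group is labelled 48 h. Each of the 6 groups (KO M1, control M1, KO M2, control M2, KO M0, control M0) had 3 libraries of poly(A) RNA, 18 in all, so each mean ± SD has n = 3. The labels describe 1 KO line and 1 control line, without saying whether the KO line was a clone. They leave unsaid if the replicates came from different cultures. The p-values therefore reflect the scatter among these libraries alone, and that scatter may be technical. Differences between the lines that do not come from Kdm7a cannot be told apart from effects of the knockout.

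The values are TPM, a measure of transcript abundance scaled for gene length and for the total of the library. Depth is unknown, since TPM keeps none. Differences are log2 fold changes of TPM + 1, given ± SE, a scale that understates the change of genes near 0. A gene was called at a limma adjusted p below 0.05, with Benjamini-Hochberg adjustment over all 11548 genes. These are bulk samples, in which fewer cells in S phase and less of a transcript per cell cannot be told apart.

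Kdm7a, on chromosome 6 at 39136620 to 39206773 (GRCm38), was lower in every KO library than in any control library of its condition, with log2 fold changes of -1.85 in M1, -1.65 in M2 and -1.47 in M0 (limma adjusted p = 4.36e-14, 6.05e-13 and 5.43e-12). Of 10 macrophage markers, 10 were at 1 TPM or more in all 18 libraries. The summed level was at most 5.11 TPM for the fibroblast markers, 1.20 TPM for the epithelial markers and 0.250 TPM for the T and NK cell markers in any library. Of the B cell markers Ms4a1 was listed at 0 throughout, and Cd79a ranged from 1.65 to 21.2 TPM.

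By TPM without further scaling, every member was lower under M1 conditions than in M0 cells of the same genotype. The direction of Rfc3 turned with scaling. In KO cells 49 of 49 members were called lower, against 58.4% of all genes tested, while 32% of all genes were called higher. In control cells 49 of 49 were called lower, against 56.9% of all genes, with 32.2% higher. The median log2 fold change of the members was -4.01 in KO and -3.48 in control cells, and that of all genes tested was -0.43 in KO and -0.38 in control cells. In KO cells 30 members fell at least 8-fold and 42 at least 4-fold, and in control cells 29 and 41 members did. The share of all genes that fell this far was not counted. Of the markers of other cell types, the neutrophil gene S100a8 and the endothelial gene Pecam1 were highest in M1 libraries, at up to 62.0 and 27.7 TPM, while S100a9 was listed at 0 and Cdh5 was at most 0.550 TPM. Their part in the result was not tested.

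Summed over the 49 genes, the level was 876, 883 and 886 TPM (lowest, median and highest library) in KO M1 cells and 1119, 1151 and 1157 TPM in control M1 cells. The sum was 6769.5, 6812 and 6930.3 TPM in KO M0 cells and 6477, 6485 and 6541 TPM in control M0 cells. The KO sum thus lay above the control sum without stimulation and below it in M1, with no overlap of the libraries in either case. Since TPM are shares, TMM scaling was tried too. It moved the median of all genes to 0.04 in KO and 0.05 in control cells. The members' median was then -3.51 in KO and -3.001 in control cells. With TMM 48 members in KO and 47 in control cells were called lower, against 43.9% and 43% of all genes. Rfc3 was called higher in both genotypes, where 46.2% and 46.3% of all genes were, and Cdt1 in control cells was not called. The share of higher genes among all called genes was 51.3% in KO and 51.9% in control cells with TMM, against 35.4% and 36.1% without it.

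**Figure D1:**
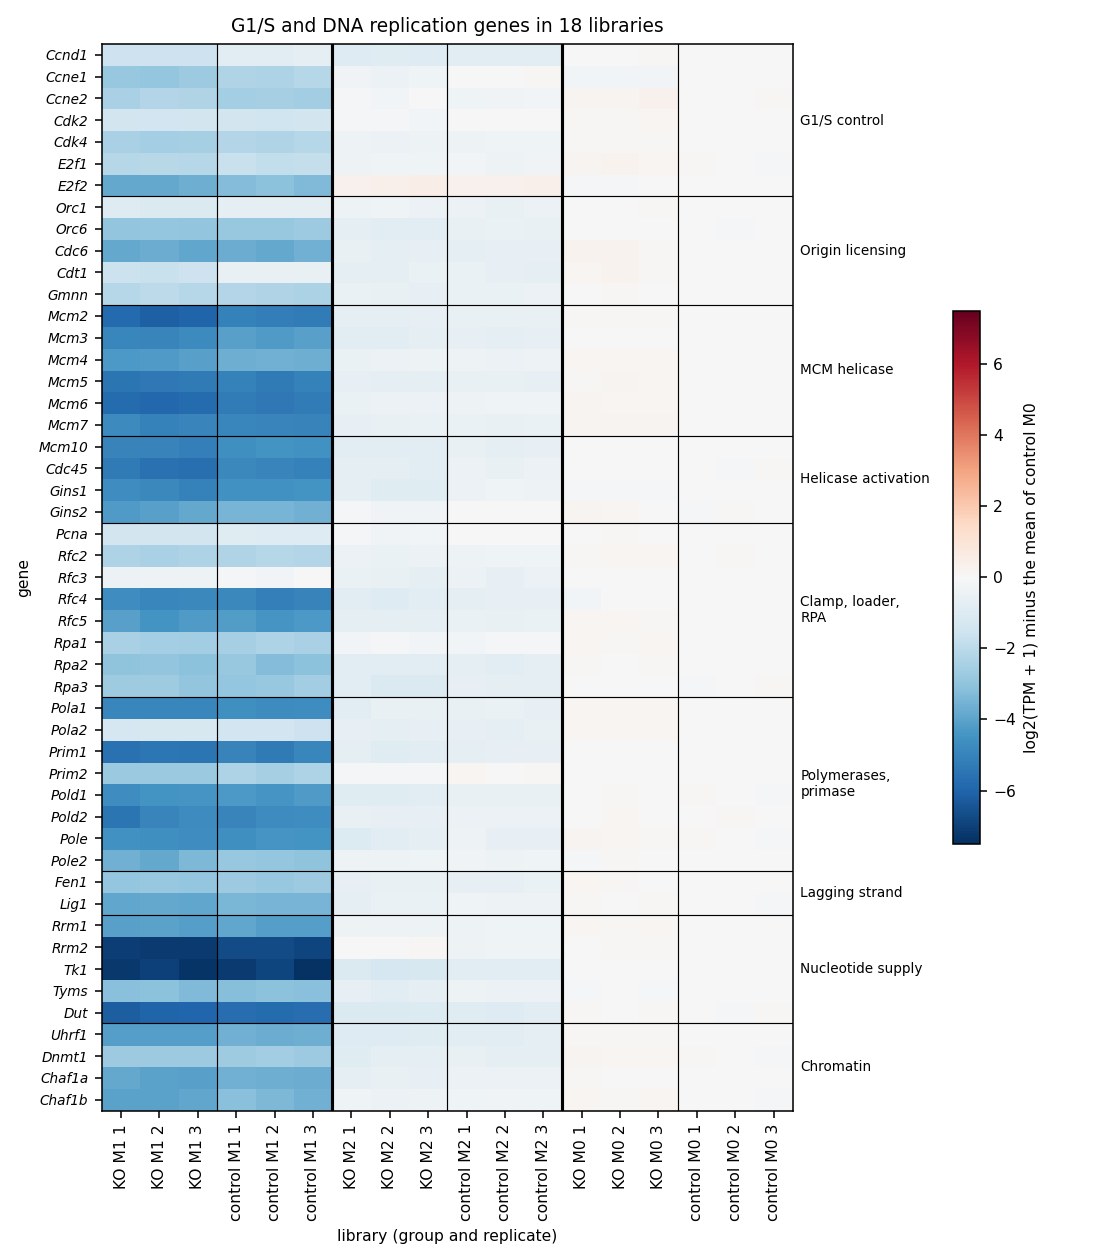
Level of the 49 genes (rows, grouped by role) in each of the 18 libraries (columns), as log2(TPM + 1) minus the mean of the 3 control M0 libraries, with blue below and red above that mean. The 6 M1 libraries on the left are darkest in the MCM, helicase activation and nucleotide supply groups, and Rfc3, in the clamp loader group, is pale there, with a direction that turned under TMM scaling.

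The list did not use promoter sequence, which can be described beside the fall. RefSeq windows (GRCm38.p6) from 250 bases before to 50 bases after a gene's start were at hand for 40 of the 49 members. The E2F consensus was searched as TTTCCCGC, TTTCGCGC, TTTGCCGC or TTTGGCGC on both strands, forms that can overlap each other. It occurred in 16 of 40 members (40%) and in 704 of 27025 genes of the RefSeq table (2.605%). A gene with several windows counted if any of them held a match. By window, the consensus occurred in 16 of 49 windows of members and in 744 of all 32851 windows (2.265%). CCAAT, searched on both strands, occurred in 24 of 40 members (60%) and in 41.06% of all genes. TTTGAA, the core of the CHR element of late cell-cycle genes, occurred on either strand in 6 of 40 members (15%) and in 20.23% of all genes. All members were tested genes, while these 27025 genes include some that were not among the 11548 tested. No share was made over the tested genes alone. A match is a match of letters and does not show that a factor binds.

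The stretches below are examples of members with an E2F match, chosen with their values known: genes of the MCM ring, of polymerases α and δ and of licensing that fell deeply in M1, and E2f2, the member that rose under M2. They run 5′ to 3′ on the gene's strand, with the match in capitals. Mcm5, Mcm7, Pola1 and Cdc6 are shown from base -250 to base -1, and Pold1 and E2f2, whose match starts at base 40 after the start, are shown from base 21 to base 50. The Mcm5 promoter (chr8:75109259-75109508, plus strand) has 2 forms of the consensus that overlap, from bases -153 and -149. The Mcm7 promoter (chr5:138171884-138172133, minus strand) has a match from base -165 and a further one from base 17 that is not shown. Mcm7 and E2f2 each had 2 windows, and the stretch shown is from the one with a match. In Pola1 (chrX:93632156-93632405, minus strand) and Cdc6 (chr11:98907901-98908150, plus strand) the match starts at base -138. Bases are counted from the start that the window used, which is not always the outer end of the gene. The listed span of Cdc6 begins at 98907709, and those of Mcm7 and Pola1, on the minus strand, reach up to 138172111 and 93632387. The matches shown for these genes thus lie inside the listed spans. The stretch of Pold1 is chr7:44548766-44548795 on the minus strand and that of E2f2 chr4:136172294-136172323 on the plus strand.
Mcm5: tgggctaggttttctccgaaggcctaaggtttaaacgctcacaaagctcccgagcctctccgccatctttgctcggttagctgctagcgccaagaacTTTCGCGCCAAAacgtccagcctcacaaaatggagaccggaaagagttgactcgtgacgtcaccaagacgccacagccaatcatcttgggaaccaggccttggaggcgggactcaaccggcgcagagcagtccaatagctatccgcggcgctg
Mcm7: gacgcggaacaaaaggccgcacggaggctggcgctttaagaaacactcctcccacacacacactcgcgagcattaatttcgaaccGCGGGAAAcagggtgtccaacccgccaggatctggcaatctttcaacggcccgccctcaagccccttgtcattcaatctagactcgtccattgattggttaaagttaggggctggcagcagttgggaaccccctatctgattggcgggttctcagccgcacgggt
Pola1: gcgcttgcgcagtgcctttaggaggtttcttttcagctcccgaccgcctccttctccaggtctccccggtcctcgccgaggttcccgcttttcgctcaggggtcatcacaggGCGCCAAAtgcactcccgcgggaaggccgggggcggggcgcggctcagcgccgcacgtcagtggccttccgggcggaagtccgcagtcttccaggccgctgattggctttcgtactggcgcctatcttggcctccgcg
Cdc6: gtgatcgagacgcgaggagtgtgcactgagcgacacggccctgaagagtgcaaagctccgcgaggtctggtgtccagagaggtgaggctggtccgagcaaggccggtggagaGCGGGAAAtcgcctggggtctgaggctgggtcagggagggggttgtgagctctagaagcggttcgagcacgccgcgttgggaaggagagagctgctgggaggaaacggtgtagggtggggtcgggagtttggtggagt
Pold1: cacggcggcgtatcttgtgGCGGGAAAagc
E2f2: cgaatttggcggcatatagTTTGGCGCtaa

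The 16 members with a match and the 24 without one covered overlapping ranges of the M1 response. In control cells the members with a match kept a median of 7.79% of their M0 level in M1 (1.72% to 91.3%), and those without one kept 7.43% (0.358% to 51.3%). Rfc3, which changed least, and Mcm6, with one of the deepest falls, both held a match. Tk1, Rrm2 and Dut, the deepest falls of all, held none in these windows.

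The genes that supply nucleotides had the deepest falls. Rrm2, the regulated subunit of ribonucleotide reductase, was at 0.560, 0.400 and 0.400 TPM in KO M1 cells and at 0.980, 0.970 and 0.740 TPM in control M1 cells. In the M0 groups Rrm2 was at 207, 216 and 214 TPM in KO cells and at 199, 206 and 209 TPM in control cells. All 6 M1 libraries thus stood below 1 TPM, and the log2 fold change was -7.20 ± 0.053 in KO and -6.76 ± 0.053 in control cells (limma adjusted p = 2.15e-26 and 4.13e-26). Tk1, the thymidine kinase of the salvage pathway, averaged 0.913 ± 0.229 TPM in KO M1 and 1.01 ± 0.376 TPM in control M1 cells, against 283 ± 4.55 TPM in KO M0 and 282 ± 9.20 TPM in control M0 cells. Its log2 fold change was -7.22 ± 0.099 in KO and -7.15 ± 0.099 in control cells (limma adjusted p = 1.16e-20 and 1.57e-20). Dut, which removes dUTP, kept 0.578% of its M0 level in KO M1 cells and 0.980% in control M1 cells, with log2 fold changes of -6.12 ± 0.059 and -5.73 ± 0.059.

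The other members of the nucleotide group fell less. Rrm1, the large subunit of the same reductase as Rrm2, kept 4.87% in KO M1 and 5.44% in control M1 cells, so the subunits of this enzyme did not keep equal shares. Tyms, the thymidylate synthase, kept 9.51% in KO M1 and 9.41% in control M1 cells.

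The 6 MCM genes, which encode the ring of the helicase, kept a median of 2.07% of their M0 level in KO M1 cells and 2.53% in control M1 cells. Mcm2 was at 1.91, 1.41 and 1.63 TPM in KO M1 cells and at 3.93, 3.65 and 3.41 TPM in control M1 cells. The M0 values of Mcm2 were 178, 181 and 179 TPM in KO cells and 163, 169.8 and 170.3 TPM in control cells. Every M1 library of Mcm2 lay below every M0 library, and the log2 fold change was -6.10 ± 0.055 in KO and -5.18 ± 0.055 in control cells (limma adjusted p = 1.69e-25 and 1.58e-24). Mcm6 had log2 fold changes of -5.99 ± 0.041 in KO and -5.26 ± 0.041 in control cells. The shares kept ran from 0.918% (Mcm2) to 4.13% (Mcm4) in KO M1 cells and from 2.18% (Mcm2) to 7.10% (Mcm4) in control M1 cells.

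The 4 factors that start the helicase also fell deeply, with a median log2 fold change of -4.90 in KO and -4.53 in control cells, beside -5.32 and -5.05 for the ring. Cdc45, which joins the MCM ring in the active helicase, was at 0.990, 0.620 and 0.560 TPM in KO M1 cells and at 1.75, 1.57 and 1.33 TPM in control M1 cells, against 75.97 to 79.8 TPM in KO M0 and 74.3 to 83.5 TPM in control M0 cells. The log2 fold change of Cdc45 was -5.52 ± 0.077 in KO and -4.96 ± 0.077 in control cells (limma adjusted p = 6.18e-23 and 3.84e-22). Mcm10, a factor needed to activate the loaded ring, had -5.05 ± 0.052 in KO and -4.54 ± 0.052 in control cells. Of the GINS subunits, Gins1 kept 2.18% in KO M1 and 2.94% in control M1 cells, and Gins2 kept 4.11% and 7.09%.

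Within the polymerase complexes, subunits of the same enzyme kept very different shares. Pola1, the catalytic subunit of polymerase α, was at 0.470, 0.480 and 0.440 TPM in KO M1 cells and at 0.780, 0.660 and 0.740 TPM in control M1 cells. Its M0 values were 46.97 to 47.3 TPM in KO and 41.4 to 42.9 TPM in control cells, so Pola1 kept 0.984% in KO M1 and 1.72% in control M1 cells. Pola2, the regulatory subunit of the same polymerase, was at 33.1, 34.1 and 33.9 TPM in KO M1 cells and at 28.8, 29.1 and 26.9 TPM in control M1 cells, against 86.5 to 88.3 TPM in KO M0 and 78.1 to 81.4 TPM in control M0 cells. It thus kept 38.5% in KO M1 and 35.7% in control M1 cells, far more than Pola1. The M1 log2 fold change was -5.04 ± 0.058 in KO and -4.64 ± 0.058 in control cells for Pola1, and -1.35 ± 0.043 and -1.46 ± 0.043 for Pola2 (limma adjusted p = 4.03e-17 in KO and 1.3e-17 in control cells for Pola2).

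The primase subunits showed the same kind of spread: Prim1, the catalytic one, kept 1.27% in KO M1 and 2.04% in control M1 cells, and Prim2 kept 13.5% and 18.3%. Pole, the catalytic subunit of polymerase ε, kept 1.05% in KO M1 and 1.52% in control M1 cells, and its partner Pole2 kept 5.96% and 10.8%. The subunits of polymerase δ stood closer to each other. Pold1, the catalytic one, kept 2.67% in KO M1 and 3.44% in control M1 cells, and Pold2 kept 2.01% and 2.60%.

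The clamp loader RFC was spread as widely. Rfc4 was at 3.37, 2.78 and 2.96 TPM in KO M1 cells and at 2.92, 2.15 and 2.49 TPM in control M1 cells, with M0 values of 96.9 to 112 TPM in KO and 107 to 115 TPM in control cells. Rfc3, another subunit of the loader, was at 48.5, 50.7 and 49.7 TPM in KO M1 cells and at 59.1, 57.2 and 63.3 TPM in control M1 cells, against 64.3 to 67.4 TPM in KO M0 and 65.2 to 66.2 TPM in control M0 cells. The libraries of Rfc3 do not overlap between M1 and M0 either, but the shares kept were 75.3% in KO and 91.3% in control cells, against 2.88% and 2.26% for Rfc4. Rfc4 had a log2 fold change of -4.72 ± 0.072 in KO and -5.002 ± 0.072 in control cells, and Rfc3 one of -0.40 ± 0.057 and -0.13 ± 0.057 (limma adjusted p = 1.4e-06 in KO and 0.0377 in control cells for Rfc3). The direction of Rfc3 turned with scaling, to 0.15 in KO and 0.37 in control cells with TMM. Its call in control cells was lost without control M0 replicate 1, 2 or 3 (-0.13, -0.12 and -0.13) or control M1 replicate 1 or 2 (-0.12 and -0.10), and also without the mean-variance trend or without a filter (limma adjusted p = 0.054 and 0.0625). Rfc2 kept 17.1% in KO M1 and 20.9% in control M1 cells, and Rfc5 kept 3.98% and 4.12%.

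Pcna, which encodes the sliding clamp, was the most abundant member in both M1 groups. It was at 272, 267 and 271 TPM in KO M1 cells and at 371, 351 and 353 TPM in control M1 cells, against 685 to 750.0 TPM in KO M0 and 673 to 718 TPM in control M0 cells. Its log2 fold change was -1.40 ± 0.035 in KO and -0.96 ± 0.035 in control cells (limma adjusted p = 8.74e-19 and 5.43e-16). The 3 subunits of RPA, which coats single-stranded DNA, kept 10.6% (Rpa2) to 15.4% (Rpa1) in KO M1 and 11.3% (Rpa2) to 18.4% (Rpa1) in control M1 cells, a narrow range beside that of the clamp loader.

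Of the genes that finish the lagging strand, Fen1, the flap nuclease, had M1 log2 fold changes of -2.998 ± 0.044 in KO and -2.75 ± 0.044 in control cells. Lig1, which seals the fragments, had -3.95 ± 0.047 and -3.48 ± 0.047. Uhrf1 and Dnmt1 maintain DNA methylation behind the fork. Uhrf1 was at 9.86, 9.92 and 9.85 TPM in KO M1 and 14.9, 13.7 and 14.1 TPM in control M1 cells, and its log2 fold change was -4.21 ± 0.035 in KO and -3.65 ± 0.035 in control cells. Dnmt1 fell less, with -2.91 ± 0.057 in KO and -2.65 ± 0.057 in control cells. The histone chaperone subunit Chaf1a kept 5.08% in KO M1 and 6.70% in control M1 cells, and its partner Chaf1b kept 4.29% and 8.16%.

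Origin licensing and G1/S control kept the largest median shares. Cdc6, which loads the MCM ring with Cdt1, was at 0.310, 0.430 and 0.280 TPM in KO M1 cells and at 0.460, 0.340 and 0.550 TPM in control M1 cells. In M0 cells Cdc6 had 19.2 to 21.4 TPM in KO and 17.4 to 18.6 TPM in control libraries, and the log2 fold change was -4.02 ± 0.071 in KO and -3.71 ± 0.071 in control cells (limma adjusted p = 2.7e-21 and 1.13e-20). Its partner Cdt1 was at 30.97, 29.01 and 32.3 TPM in KO M1 cells and at 65.2, 63.8 and 65.1 TPM in control M1 cells, against 104 to 113 TPM in KO M0 and 93.2 to 97.6 TPM in control M0 cells. Cdt1 stayed far higher than Cdc6 in M1, above all in control cells, with log2 fold changes of -1.76 ± 0.055 in KO and -0.55 ± 0.055 in control cells (limma adjusted p = 3.12e-17 and 8.41e-09). With TMM the change of Cdt1 in control cells was -0.05 and was not called. Orc1, the largest subunit of the origin recognition complex, had -1.07 ± 0.059 in KO and -0.71 ± 0.059 in control cells. The small subunit Orc6 kept 11.9% in KO M1 and 13.1% in control M1 cells. Gmnn, the inhibitor of Cdt1, kept 22.4% in KO M1 and 20.3% in control M1 cells.

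In the G1/S group, Ccnd1 (cyclin D1) was at 79.3, 77.8 and 78.8 TPM in KO M1 cells and at 136, 136 and 140.3 TPM in control M1 cells, against 228 to 244 TPM in KO M0 and 232 to 235 TPM in control M0 cells. Its log2 fold change was -1.58 ± 0.031 in KO and -0.76 ± 0.031 in control cells (limma adjusted p = 1.07e-20 and 2.54e-15). Ccne1, which encodes cyclin E1, had -2.61 ± 0.051 in KO and -2.23 ± 0.051 in control cells. E2f2, an activating E2F factor, kept the smallest share of this group, with log2 fold changes of -3.68 ± 0.064 in KO and -3.21 ± 0.064 in control cells. E2f1, another activator, kept 17.96% in KO M1 and 27.1% in control M1 cells. The kinase Cdk2 kept 34.7% in KO M1 and 37.3% in control M1 cells, and Cdk4 kept 16.6% and 21.8%. Across roles the median share kept in M1 ran from 0.578% (nucleotide supply) to 22.4% (origin licensing) in KO cells and from 0.980% (nucleotide supply) to 21.8% (G1/S control) in control cells.

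**Figure D2:**
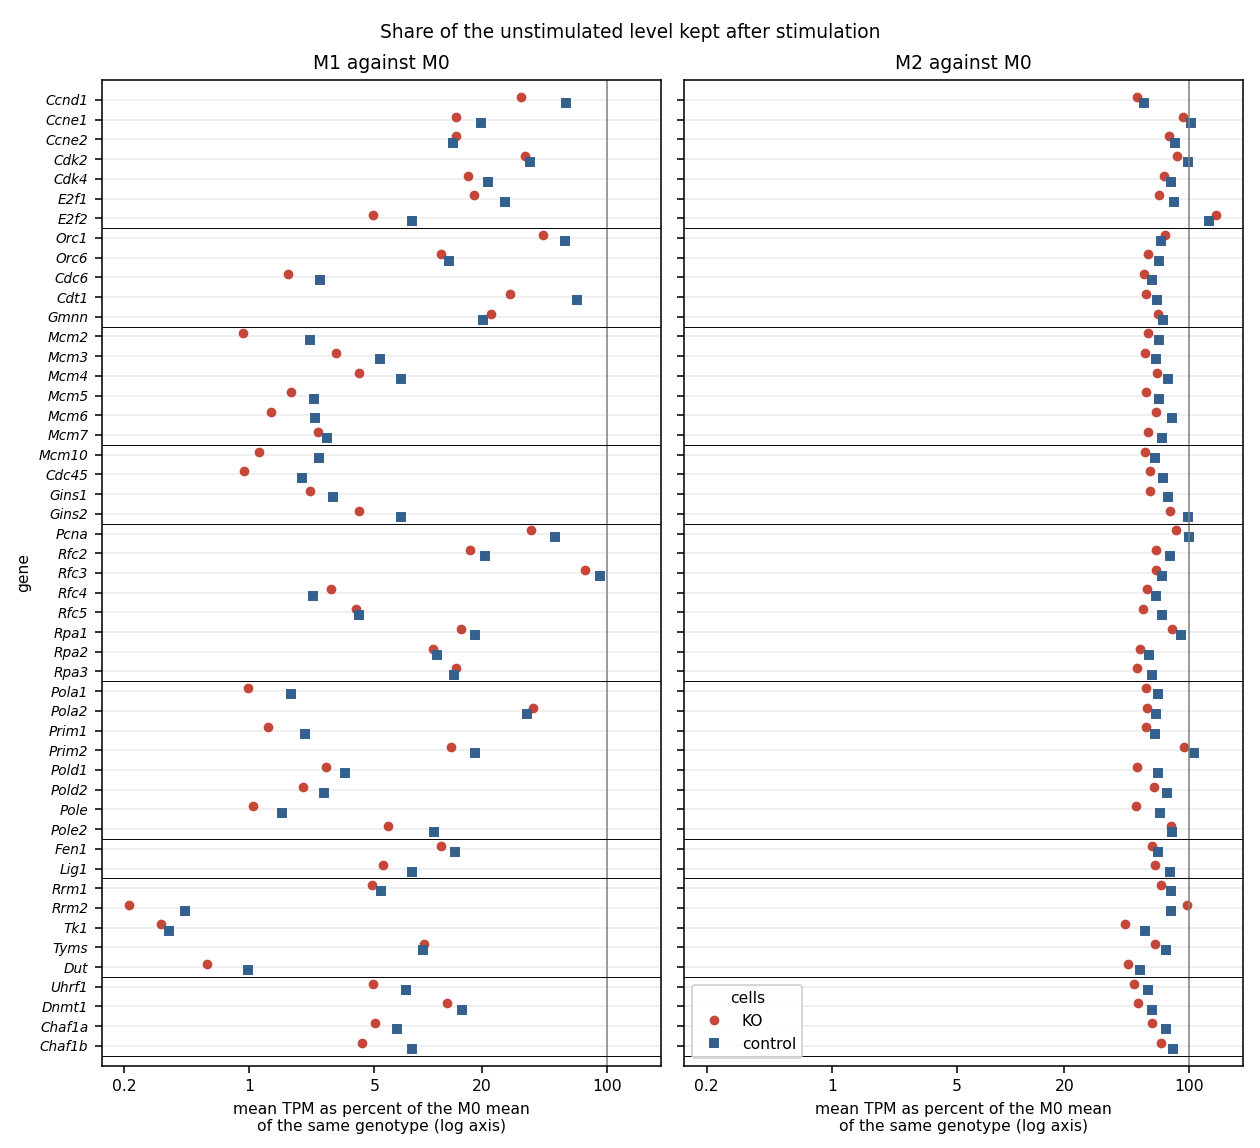
Mean TPM of each member in M1 (left) and M2 (right) cells as percent of the M0 mean of the same genotype, on a log axis, with KO cells as circles and control cells as squares and the vertical line at 100%. In M1 the shares run from 0.214% to 75.3% in KO and from 0.358% to 91.3% in control cells, and in M2 from 43.9% to 140.2% and from 52.8% to 129%. The side of 100% on which Rfc3 lies in M1 turned with TMM scaling.

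M2 conditions lowered most of these genes too, but far less. In KO cells 47 of 49 members were called lower and 1 higher, against 43.2% lower and 29.6% higher of all genes tested. In control cells 43 members were called lower and 1 higher, against 37% lower and 28.4% higher of all genes. The median log2 fold change of the members was -0.68 in KO and -0.49 in control cells, and that of all genes was -0.09 and -0.05. The summed level was 4412, 4489.8 and 4517 TPM (lowest, median and highest library) in KO M2 cells and 4841, 4856 and 4912 TPM in control M2 cells. The groups did not overlap, and both lay below the M0 sums given above. The median member kept 62.1% of its M0 level in KO M2 and 70.6% in control M2 cells. The B cell marker Cd79a was higher in the M2 groups, with a summed marker level of 19.6 to 21.2 TPM in KO M2 and 13.1 to 15.1 TPM in control M2 libraries and at most 2.63 TPM elsewhere, and its part in the result was not tested.

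Tk1 and Dut were among the deepest falls here too. Tk1 was at 132, 118 and 123 TPM in KO M2 cells and at 162, 156 and 159 TPM in control M2 cells, with the M0 means given above, and its log2 fold change was -1.18 ± 0.099 in KO and -0.82 ± 0.099 in control cells (limma adjusted p = 9.89e-09 and 1.29e-06). Dut had -1.13 ± 0.059 in KO and -0.91 ± 0.059 in control cells. Uhrf1 had -1.03 ± 0.035 in KO and -0.76 ± 0.035 in control cells. Cyclin D1 was lowered by M2 as well: Ccnd1 had -0.97 ± 0.031 in KO and -0.84 ± 0.031 in control cells.

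E2f2 was the member that rose. It was at 42.6, 43.4 and 48.3 TPM in KO M2 cells and at 43.3, 42.9 and 44.6 TPM in control M2 cells, against 31.1 to 33.05 TPM in KO M0 and 33.2 to 34.7 TPM in control M0 cells. No M2 library of E2f2 fell within the range of the M0 libraries of its genotype, and the log2 fold change was 0.47 ± 0.064 in KO and 0.36 ± 0.064 in control cells (limma adjusted p = 1.89e-06 and 6.76e-05). E2f1, the other E2F gene among the members, kept 67.4% of its M0 level in KO M2 and 82.5% in control M2 cells.

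Rrm2 differed from the rest of its group in KO cells. It was at 197, 209 and 213 TPM in KO M2 cells, overlapping the 207 to 216 TPM of KO M0 cells, and the change was not called (limma adjusted p = 0.515). In control M2 cells Rrm2 was at 157, 166 and 165 TPM, below all control M0 libraries at 199 to 209 TPM, with a log2 fold change of -0.33 ± 0.053 (limma adjusted p = 1.99e-05). The members not called in control M2 cells were Ccne1, Cdk2, Gins2, Pcna and Prim2, whose means lay between 98.1% (Gins2) and 106% (Prim2) of the M0 mean; with TMM Prim2 was called higher there.

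**Figure D3:**
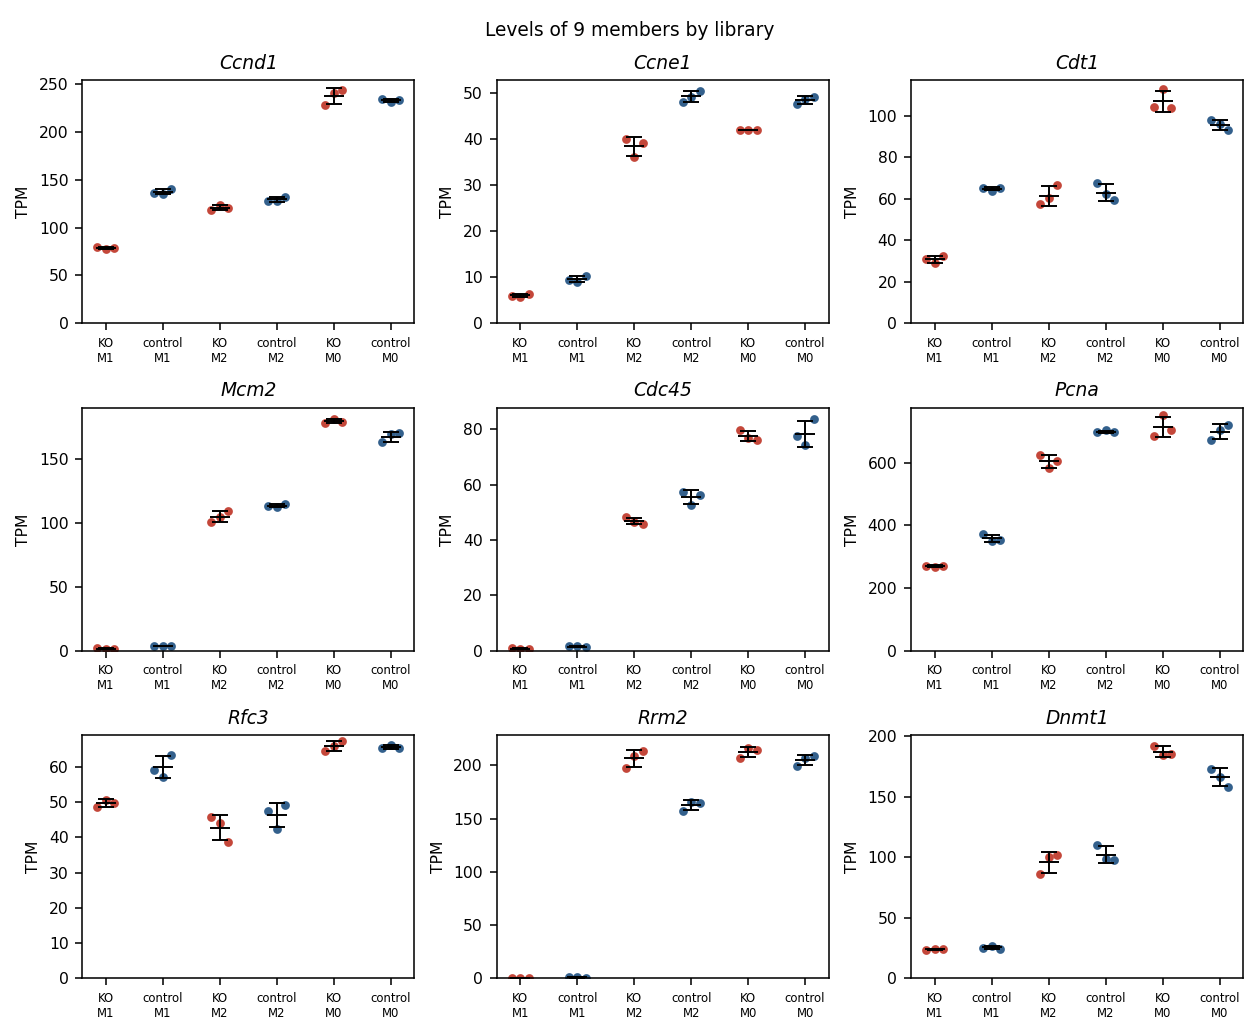
TPM of 9 members in each library (points, 3 per group), with the group mean and SD as bars, and groups in the order KO M1, control M1, KO M2, control M2, KO M0, control M0. Mcm2, Cdc45 and Rrm2 lie near 0 in both M1 groups, Rfc3 does not (its M1 direction turned with TMM scaling), and Ccnd1 and Cdt1 lie lower in KO M1 than in control M1 cells.

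Set directly against each other, M1 cells had less of nearly all members than M2 cells. In KO cells 48 of 49 were called lower in M1 and 1 higher, against 59.9% lower and 30.3% higher of all genes. In control cells 46 were lower and 2 higher, against 59% and 30.3% of all genes. The members' median was -3.32 in KO and -3.07 in control cells, and that of all genes -0.45 and -0.42. With TMM the share of higher genes among all called genes was 48.7% in KO and 49.3% in control cells, against 33.6% and 33.9% without it. Rrm2 had the largest difference, -7.16 ± 0.053 in KO and -6.43 ± 0.053 in control cells. Tk1 followed with -6.04 ± 0.099 in KO and -6.33 ± 0.099 in control cells, and Mcm6 with -5.37 ± 0.041 and -4.93 ± 0.041.

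Rfc3 was the member higher in M1 than in M2 in both genotypes, by 0.21 ± 0.057 log2 units in KO and 0.37 ± 0.057 in control cells (limma adjusted p = 0.0016 and 5.15e-06). Rfc3 averaged 49.6 ± 1.11 TPM in KO M1 and 59.9 ± 3.10 TPM in control M1 cells, against 42.8 ± 3.61 TPM in KO M2 and 46.3 ± 3.49 TPM in control M2 cells. In control cells Ccnd1 was also higher in M1 than in M2, by 0.08 ± 0.031 (limma adjusted p = 0.0141). Without control M1 replicate 3 this difference was 0.07 and was not called. Cdt1, not called, averaged 64.7 ± 0.768 TPM in control M1 and 62.9 ± 4.13 TPM in control M2 cells, and was called higher in M1 with TMM. Orc1 was lower in M1 than in M2 control cells, with -0.23 ± 0.059, a direction that turned to 0.18 with TMM.

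Without stimulation the KO cells had slightly more of several members. In M0, 10 of 49 members were called higher in KO than in control cells and 1 lower, against 8.86% higher and 10.3% lower of all genes tested. The members' median log2 fold change was 0.07 and that of all genes 0.00. The 10 were Ccne2, E2f1, Mcm4, Mcm6, Mcm7, Rfc2, Rpa1, Pola2, Rrm1 and Dnmt1. Mcm6 was at 396, 387 and 389 TPM in KO M0 cells and at 343, 354 and 348 TPM in control M0 cells. These groups did not overlap, and Mcm6 was 0.16 ± 0.041 log2 units higher in KO cells (limma adjusted p = 0.00699). Ccne2, which encodes cyclin E2, averaged 30.1 ± 1.80 TPM in KO and 25.2 ± 1.03 TPM in control M0 cells. It was 0.25 ± 0.066 higher in KO M0 cells (limma adjusted p = 0.0108), and 0.20 without KO M0 replicate 3, which was not called. The count of 10 depended on single libraries: it was 6, 2 and 4 without KO M0 replicates 1, 2 and 3, and 6, 5 and 3 without control M0 replicates 1, 2 and 3. It was 18 when the M0 groups alone were fitted. In these fits with fewer libraries the share of all genes called was not counted.

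Ccne1 was the member called lower in KO cells in all 3 conditions. It was at 6.02, 5.72 and 6.38 TPM in KO M1 and at 9.46, 9.01 and 10.2 TPM in control M1 cells. In M2 it was at 40.1, 36.2 and 39.3 TPM in KO and at 48.1, 49.3 and 50.6 TPM in control cells, and in M0 at 41.96, 41.98 and 41.95 TPM in KO and at 47.6, 48.9 and 49.1 TPM in control cells. In none of the conditions did the KO and control libraries overlap. The differences were -0.59 ± 0.051 in M1, -0.35 ± 0.051 in M2 and -0.21 ± 0.051 in M0 (limma adjusted p = 1.31e-08, 2.71e-05 and 0.00662). The other cyclin E gene, Ccne2, was higher in KO cells in M0 and M1.

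Under M1 conditions most members were lower in KO than in control cells. Of the 49, 33 were called lower and 4 higher, against 33.4% lower and 16.9% higher of all genes tested. The members' median was -0.29 and that of all genes -0.06. With TMM 29 members were called lower and 4 higher, against 27.1% lower and 24% higher of all genes. The share of higher genes among all called genes was then 47.1%, against 33.6% without it. Cdt1 showed the largest difference, -1.05 ± 0.055 log2 units (limma adjusted p = 9.19e-12), with the library values given above. Mcm2 had -0.82 ± 0.055 and Ccnd1 -0.80 ± 0.031 (limma adjusted p = 3.87e-10 and 7.26e-14). Mcm3, of the same ring as Mcm2, was at 9.99, 9.27 and 10.8 TPM in KO M1 cells and at 17.8, 16.1 and 17.7 TPM in control M1 cells, a difference of -0.73 ± 0.045. Pole2 differed by -0.67 ± 0.089 and Chaf1b by -0.60 ± 0.079. For each of these 6 genes, named for their large differences, the KO libraries lay below all control libraries. The share of all genes without such overlap was not counted.

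The 4 members higher in KO M1 cells were Ccne2, Pola2, Rfc4 and Gmnn. Ccne2 was at 3.87, 4.75 and 4.37 TPM in KO M1 cells and at 3.49, 3.59 and 3.34 TPM in control M1 cells, a difference of 0.25 ± 0.066 without overlap (limma adjusted p = 0.00366). Pola2 was 0.25 ± 0.043 log2 units higher in KO M1 cells (limma adjusted p = 8.71e-05). Gmnn, at 40.8 ± 3.02 TPM in KO M1 and 36.00 ± 1.78 TPM in control M1 cells, was higher by 0.18 ± 0.050 (limma adjusted p = 0.00619); without KO M1 replicate 2 the difference was 0.12 and not called. Rfc4 was higher by 0.20 ± 0.072 (limma adjusted p = 0.0254), with libraries that overlap. It was not called without control M1 replicate 2 (0.12), control M1 replicate 3 (0.20) or KO M1 replicate 1 (0.14), nor without a filter or with the M1 groups alone (limma adjusted p = 0.05 and 0.132). The summed neutrophil markers, nearly all S100a8, also differed between the M1 groups, at 10.1 to 12.6 TPM in KO and 52.9 to 62.0 TPM in control libraries, with S100a9 listed at 0. The summed endothelial markers, mostly Pecam1, were at 25.4 to 28.0 TPM in KO M1 and 20.7 to 22.0 TPM in control M1 libraries. Their part in these differences was not tested.

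**Figure D4:**
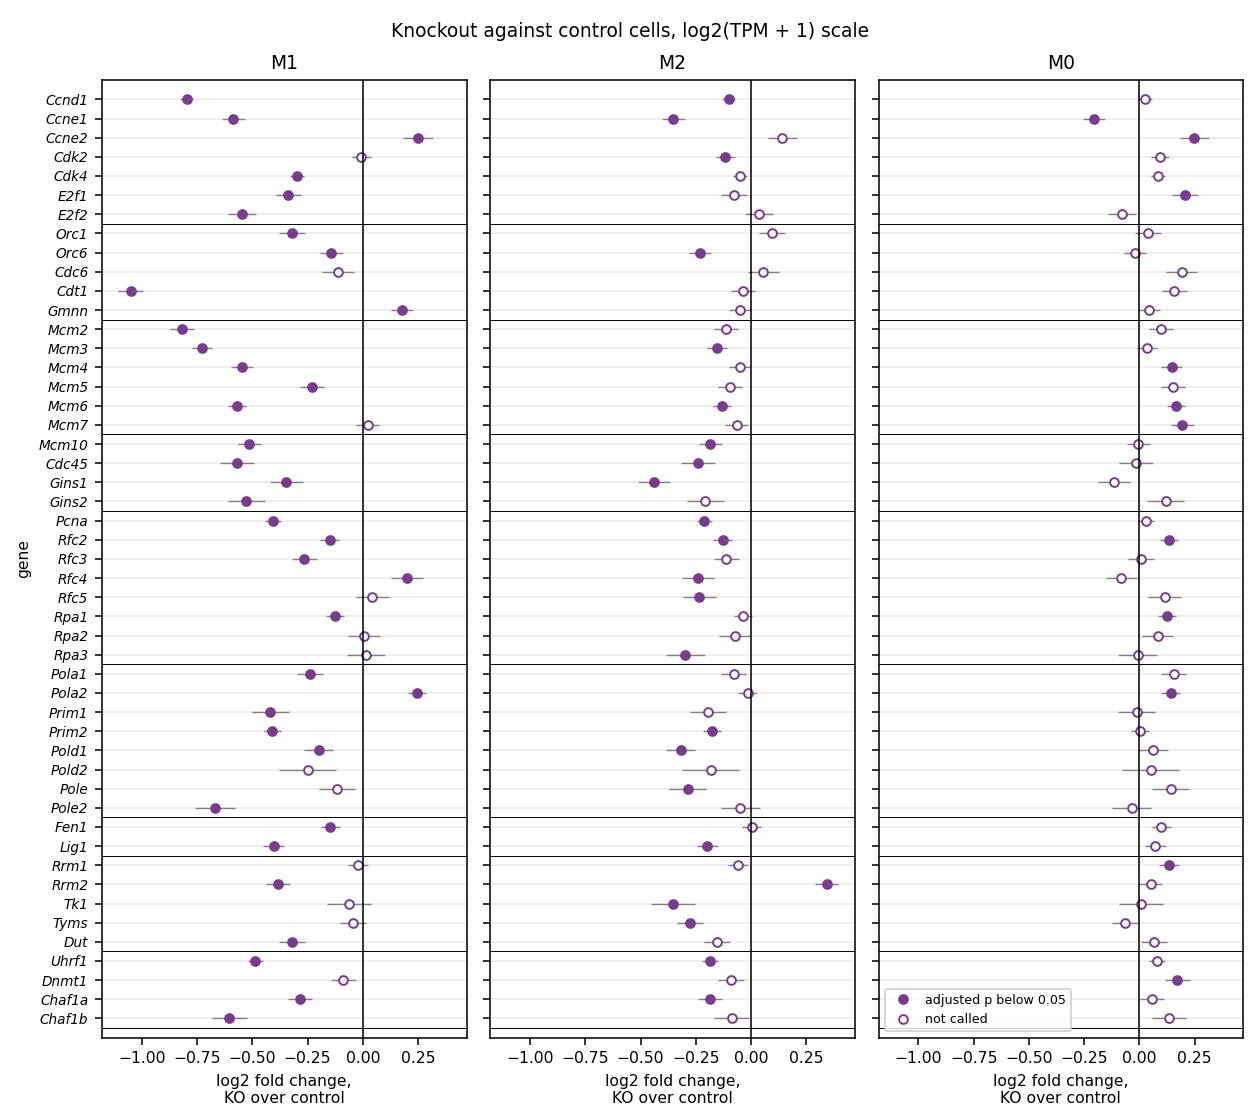
Log2 fold change of each member, KO over control, in M1, M2 and M0 cells, with bars for 1 SE and filled circles for a limma adjusted p below 0.05. The called members lie mostly left of 0 in M1 (33 lower, 4 higher) and in M2 (22 lower, 1 higher) and mostly right of it in M0 (10 higher, 1 lower).

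Under M2 conditions the called differences between KO and control cells were fewer. Of the 49 members 22 were called lower in KO cells and 1 higher, against 18.3% lower and 12.7% higher of all genes tested, with a median of -0.12 for the members and -0.03 for all genes. The count of 22 was 13 without KO M2 replicate 2, 16 with TMM and 14 with median-ratio scaling. Of all genes, 13.9% were called lower with TMM and 13.4% with median-ratio scaling. The share of all genes without KO M2 replicate 2 was not counted. With TMM the share of higher genes among all called genes was 54.0%, against 41.0% without it. Gins1, a subunit of the GINS complex, was at 40.9, 35.5 and 35.5 TPM in KO M2 cells and at 48.4, 53.5 and 50.4 TPM in control M2 cells. It had the largest difference, -0.44 ± 0.074 (limma adjusted p = 0.000145), with no overlap. Pold1, the catalytic subunit of polymerase δ, was at 31.9, 32.2 and 34.4 TPM in KO M2 cells and at 41.3, 40.9 and 41.3 TPM in control M2 cells, which do not overlap either. The difference for Pold1 was -0.32 ± 0.066 (limma adjusted p = 0.00107). Pcna had -0.21 ± 0.035 and Uhrf1 -0.19 ± 0.035. Tk1 had -0.35 ± 0.099 (limma adjusted p = 0.0121), and -0.31, not called, without KO M2 replicate 2; with a pseudocount of 0.1 TPM it was not called either (limma adjusted p = 0.182).

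Rrm2 was the member higher in KO M2 cells. With 207 ± 8.24 TPM in KO M2 and 163 ± 4.60 TPM in control M2 cells, it differed by 0.34 ± 0.053 log2 units (limma adjusted p = 6.35e-05), and the lowest KO library lay above the highest control library. In M1 cells the means of Rrm2 stood the other way, at 0.453 ± 0.0924 TPM in KO M1 and 0.897 ± 0.136 TPM in control M1 cells.

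The difference of the responses was tested directly, as the M1 change in KO cells minus the M1 change in control cells. Of the 49 members 33 were called lower, that is, with a deeper M1 fall in KO cells, and 1 higher, against 23.9% lower and 12.1% higher of all genes. The members' median was -0.36 and that of all genes -0.07. With TMM 31 members were called lower and 1 higher, against 19.5% and 16.8% of all genes. The share of higher genes among all called genes was then 46.4%, against 33.6% without TMM. Cdt1 had the largest difference, -1.21 ± 0.078 (limma adjusted p = 8.13e-10), followed by Mcm2 with -0.92 ± 0.078 and Ccnd1 with -0.82 ± 0.043 (limma adjusted p = 3.61e-08 and 5.91e-11). Mcm3 differed by -0.76 ± 0.063 and Chaf1b by -0.74 ± 0.11. Read as shares, Mcm2 kept 0.918% of its M0 level in KO M1 and 2.18% in control M1 cells, Cdt1 28.8% and 67.7%, and Ccnd1 33.1% and 58.9%. Rfc4 was the member called higher, by 0.28 ± 0.10 (limma adjusted p = 0.0362). That call was lost without control M0 replicate 2 or 3 (0.26 and 0.28), control M1 replicate 2 or 3 (0.20 and 0.28), KO M0 replicate 1 or 3 (0.22 and 0.29) or KO M1 replicate 1 (0.22).

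For the M2 response 16 members were called lower in KO cells and 1 higher, against 7.05% lower and 7.06% higher of all genes. The members' median was -0.21 and that of all genes -0.03, and with TMM the share of higher genes among all called genes was 60.3%, against 50.03% without it. Pole had the lowest value, -0.43 ± 0.12 (limma adjusted p = 0.0186), and was not called without control M0 replicate 3 (-0.39) or control M2 replicate 1 (-0.35), nor with a pseudocount of 0.1 TPM (limma adjusted p = 0.115). Pold1 had -0.38 ± 0.093, Mcm6 -0.30 ± 0.058 and Uhrf1 -0.26 ± 0.050 (limma adjusted p = 0.00912, 0.00155 and 0.00115). Rrm2 had 0.29 ± 0.075 (limma adjusted p = 0.013), the sign of a shallower fall in KO cells. The count of 16 was 8 without control M0 replicate 3 or control M2 replicate 1, 9 without KO M0 replicate 2, and 10 without KO M0 replicate 3 or control M2 replicate 3. It was 28 when only the 4 groups compared were fitted and 10 with TMM. The share of all genes called in the fits with fewer libraries was not counted. Of all genes, 5.65% were called lower with TMM.

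Of 61 further genes of the pathway, 58 were tested; Cdkn1c, Cdkn2a and Cdkn2b, which encode Cdk inhibitors, were not. In M1, 46 of the 58 were called lower and 10 higher in KO cells, and 45 lower and 9 higher in control cells, with medians of -1.91 and -1.72. The shares of all genes were 58.4% lower and 32% higher in KO and 56.9% lower and 32.2% higher in control cells. In M2, 48 were lower and 6 higher in KO cells, and 45 lower and 6 higher in control cells, with medians of -0.54 and -0.37, against 43.2% lower and 29.6% higher of all genes in KO and 37% lower and 28.4% higher in control cells. Between KO and control cells, 25 of the 58 were lower and 13 higher in M1, against 33.4% lower and 16.9% higher of all genes. In M2 20 were lower and 4 higher, against 18.3% and 12.7% of all genes, and in M0 4 were lower and 13 higher, against 10.3% and 8.86%. Ccna2, which encodes cyclin A2 of S and G2 phase, averaged 0.483 ± 0.192 TPM in KO M1 and 0.437 ± 0.142 TPM in control M1 cells, with log2 fold changes from M0 of -7.64 ± 0.072 and -7.54 ± 0.072.

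The Cdk inhibitor gene Cdkn1a, which encodes p21, moved opposite to the members in M1. It was at 1976, 1920.0 and 1957 TPM in KO M1 cells and at 1676, 1714 and 1690.2 TPM in control M1 cells. In M2 it averaged 276 ± 1.25 TPM in KO and 375 ± 20.4 TPM in control cells, and in M0 157 ± 11.5 TPM in KO and 224 ± 9.40 TPM in control cells. All M1 libraries thus lay far above the others. Cdkn1a rose by 3.63 ± 0.044 log2 units in KO M1 and by 2.92 ± 0.044 in control M1 cells (limma adjusted p = 7.76e-24 and 2.31e-22), and by 0.81 ± 0.044 in KO M2 and 0.74 ± 0.044 in control M2 cells. The M1 rise was 0.71 ± 0.062 log2 units larger in KO cells (limma adjusted p = 4.79e-08), and Cdkn1a was 0.20 ± 0.044 higher in KO M1 than in control M1 cells. Cdkn1b, which encodes p27, had M1 changes of 1.07 ± 0.062 in KO and 1.03 ± 0.062 in control cells. Not all genes of this kind rose: of 7 inhibitors and pocket proteins (relatives of the retinoblastoma protein), 4 were called higher and 3 lower in M1 in each genotype. Those lower were the pocket protein genes Rbl1 and Rbl2 and Cdkn2c, an inhibitor of Cdk4 and Cdk6. Cdkn2c averaged 21.5 ± 0.323 TPM in KO M1 and 17.2 ± 0.966 TPM in control M1 cells, against 73.4 ± 0.443 TPM in KO M0 and 68.1 ± 2.31 TPM in control M0 cells, with log2 fold changes of -1.73 ± 0.041 and -1.93 ± 0.041.

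Other regulators rose as well. Samhd1, which breaks down dNTPs, was at 451 ± 5.11 TPM in KO M1 and 440.4 ± 10.1 TPM in control M1 cells, against 60.5 ± 0.108 TPM in KO M0 and 60.6 ± 1.28 TPM in control M0 cells, a rise of 2.88 ± 0.035 and 2.84 ± 0.035 log2 units. Cdk6, a partner of D cyclins beside Cdk4, had M1 changes of 1.22 ± 0.069 in KO and 0.94 ± 0.069 in control cells. Ccnd3, a cyclin D gene, had M2 changes of 1.07 ± 0.042 in KO and 1.01 ± 0.042 in control cells. Pold4, a small subunit of polymerase δ, had M2 changes of 1.21 ± 0.060 in KO and 1.45 ± 0.060 in control cells.

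Between genotypes, E2f6, a repressing E2F factor, was higher in KO cells in each condition. It was at 12.0, 11.2 and 11.4 TPM in KO M1 cells and at 7.25, 6.59 and 6.93 TPM in control M1 cells. It averaged 38.8 ± 1.51 TPM in KO M2 against 21.9 ± 0.396 TPM in control M2 cells, and 46.4 ± 0.305 TPM in KO M0 against 25.2 ± 1.21 TPM in control M0 cells. The libraries overlapped in none of the conditions, and the differences were 0.66 ± 0.048 in M1, 0.80 ± 0.048 in M2 and 0.85 ± 0.048 in M0 (limma adjusted p = 1.26e-09, 2.12e-10 and 9.06e-11). Ccnd2 (cyclin D2) was at 74.8, 73.6 and 72.8 TPM in KO M1 cells and at 42.5, 43.9 and 42.8 TPM in control M1 cells, a difference of 0.76 ± 0.059 (limma adjusted p = 2.53e-09), where Ccnd1 had the opposite sign. Its M1 response differed by 0.79 ± 0.083 log2 units. Cdk6 was lower in KO cells in each condition, with -0.39 ± 0.069 in M1, -0.45 ± 0.069 in M2 and -0.67 ± 0.069 in M0.

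**Figure D5:**
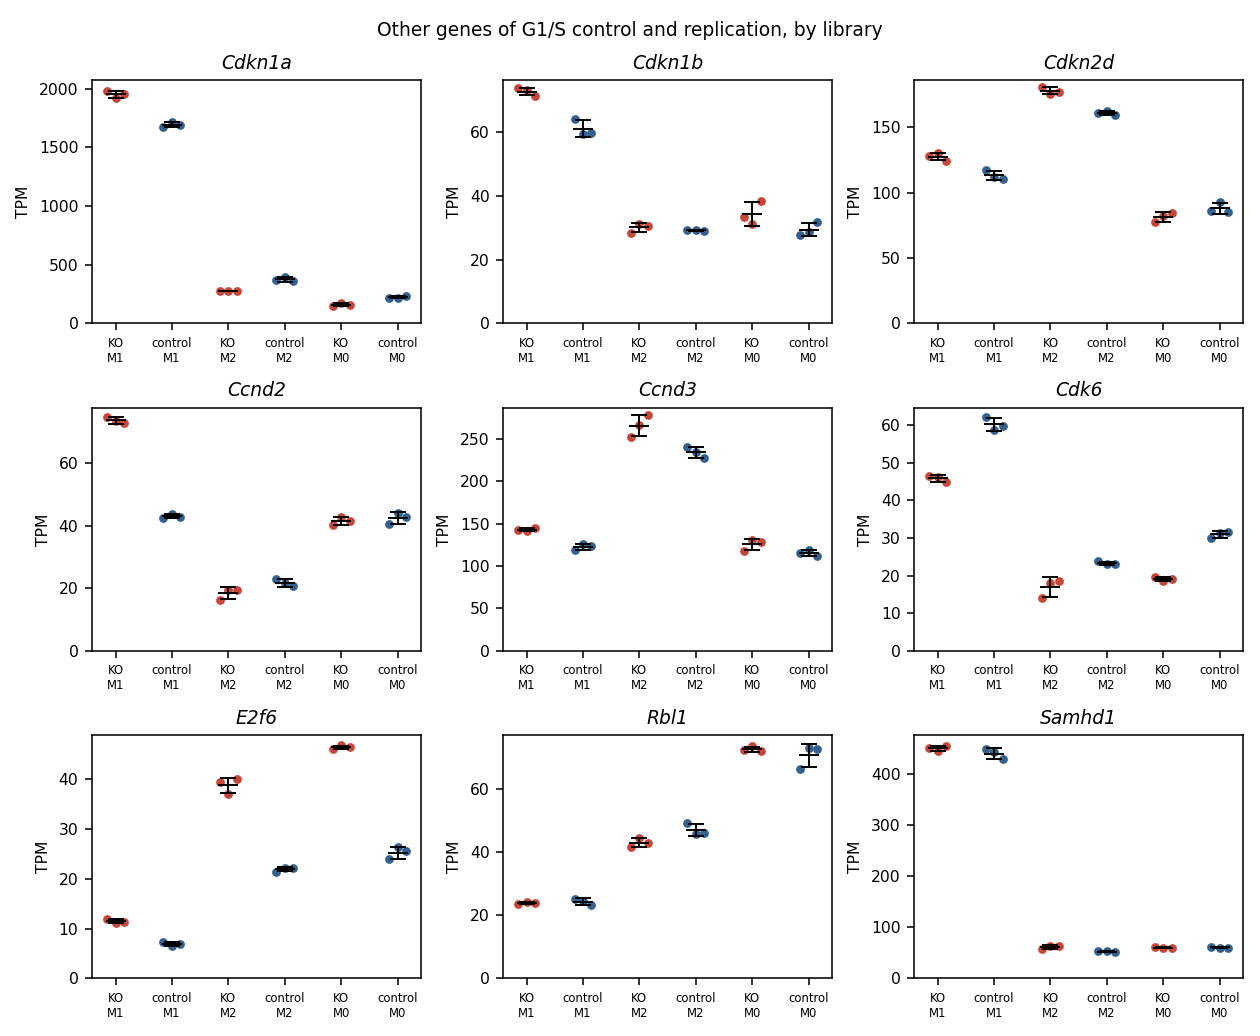
TPM of 9 other genes of G1/S control and replication in each library (points, 3 per group), with the group mean and SD as bars. Cdkn1a and Samhd1 are highest in both M1 groups, Ccnd2 in KO M1 cells, and E2f6 is higher in KO than in control cells in each condition.

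The reads of a gene and of an overlapping one on the other strand cannot be told apart where counting ignored strand, and whether it did is not given in the sources used here. In the mouse annotation of this build 18 of the 49 members shared exon bases with another gene, 16 of them with one on the opposite strand, among them Ccnd1, Gins2, Rfc2, Fen1 and Chaf1a.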

How the data were processed

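The deposited values are TPM per gene symbol in 18 libraries, made by the authors from poly(A) RNA libraries. Per the submitters' processing notes the reads were processed with Trim Galore and the genome build was mm10. For the aligner, quantifier, gene annotation and strand setting, the tool or choice is "not given in the sources used here". TPM keep no depth, so no counting error could be given. The members and gene lists were chosen with earlier results of these data known.

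Genes with at least 1 TPM in at least 3 libraries were kept, and log2(TPM + 1) was fitted with limma 3.58.1 (R 4.3.3; trend and robust settings) as 6 group means. The 11 comparisons were two-sided, with Benjamini-Hochberg adjustment over 11548 genes and a threshold of 0.05; the procedure was tested on simulated data first. Described in full were members with a key role in each step and those with the largest rise or fall in a comparison. Alternatives were TMM (computed from its published definition) and median-ratio factors on the TPM scale, a pseudocount of 0.1 TPM, a filter of 5 TPM or none at all, a fit lacking the mean-variance trend, a replicate block, the compared groups alone, and leaving out each library. No 2 libraries held identical values.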

Additional observations from a re-analysis of the deposited data

Results flagged for a closer look

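The M1 response differed between KO and control cells by its own limma test for many members, with 33 of 49 called lower, against 23.9% of all genes. Named members were Cdt1 at -1.21, Mcm2 at -0.92, Ccnd1 at -0.82, Mcm3 at -0.76 and Chaf1b at -0.74 log2 units, and Rfc4 at 0.28.

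The M2 response differed in the same test for fewer members, with 16 called lower, against 7.05% of all genes. Named members were Pole at -0.43, Pold1 at -0.38, Mcm6 at -0.30 and Uhrf1 at -0.26 log2 units, and Rrm2 at 0.29.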

How the results depend on the processing

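Counts that moved by more than 1.5 times were these. With TMM, members called higher for M1 against M0 were 1 in KO and 1 in control cells, against 46.2% and 46.3% of all genes. In control cells they were 2 for M2 against M0 and 4 for M1 against M2, against 32.5% and 43.9% of all genes. With median-ratio factors the counts higher in control cells were 1 for M1 against M0 and 4 for M1 against M2. The shares of all genes were 45.2% and 44.2%. For the difference of M1 responses 3 members were called higher with these factors, against 17.7% of all genes. Members lower in KO M2 than in control M2 cells were 14 with median-ratio factors, against 13.4% of all genes. Members lower in the difference of M2 responses were 10 with TMM, with median-ratio factors and with a pseudocount of 0.1 TPM. Of all genes, 5.65%, 5.19% and 5.4% were called lower in these settings. The count of members was 28 with the compared groups alone. That setting also gave 18 higher and 2 lower between KO and control M0 cells. For the compared groups alone the share of all genes called was not counted. Rfc4, called higher in the difference of M1 responses, was not called without a mean-variance trend, without a filter or with the compared groups alone (limma adjusted p = 0.0527, 0.0689 and 0.0613), a count of 0. Rrm2, called higher in the difference of M2 responses, was not called with a pseudocount of 0.1 TPM (limma adjusted p = 0.19), again a count of 0.

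Leaving out 1 library gave 2 to 12 members higher between KO and control M0 cells and 13 to 25 lower between KO and control M2 cells. It gave 8 to 21 lower in the difference of M2 responses and 0 to 1 higher in the difference of M1 responses. For M1 against M2 in control cells it gave 1 to 2 higher. The share of all genes called in these fits was not counted. Members called and called alike under every alternative were 30 of 34 for the difference of M1 responses, 6 of 17 for that of M2 responses, and 29 of 37, 12 of 23 and 2 of 11 between KO and control cells in M1, M2 and M0.

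Directions were compared for the genes and comparisons described with their own tests, and other pairs are not listed. Among those compared, Rfc3 turned for M1 against M0 (0.15 in KO and 0.37 in control cells with TMM, 0.13 and 0.33 with median-ratio factors). Orc1 turned for M1 against M2 in control cells (0.18 with TMM and 0.19 with median-ratio factors). Rrm2 turned for M2 against M0 in KO cells (0.039 with TMM, not called). By construction these factors shift every gene of a library alike.

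With a replicate block, 8 members were called higher between KO and control M0 cells and 17 lower in the difference of M2 responses, and the other counts were as without it. The labels do not say whether libraries of the same number belong together. Of 45 same-numbered pairs, 7 had a correlation of deviations above 0.1 (range -0.159 to 0.150), and 10 of 18 libraries correlated best with their own number.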
